A study of Mus musculus with 3 samples.

Results

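The 9 genes described here encode the parts of major histocompatibility complex (MHC) class I antigen presentation: the light chain (B2m), 3 heavy chains (H2-D1, H2-K1 and H2-T23), both subunits of the peptide transporter (Tap1 and Tap2), the loading chaperone tapasin (Tapbp), a peptide-trimming enzyme (Erap1) and the class I transactivator (Nlrc5). They were taken by symbol, each matched 1 row, and together they are 9 of the 21881 symbols measured. Total RNA depleted of ribosomal RNA was sequenced from 3 snap-frozen mammary tumours, each grown from the NDL(UCD) mouse mammary tumour line in a different female FVB/N mouse (strain name FVB/NJ in the protocol), with no second group for comparison. NDL lines carry an activated Erbb2 (Neu) transgene driven by a mammary tumour virus promoter, cells were injected into uncleared mammary fat pads of mice 6 to 8 weeks old, and each tumour was harvested once it measured 5 to 10 mm across. All 3 tumours come from 1 line in 1 inbred strain, and the host keeps its immune system, so each library mixes tumour RNA with RNA of host cells.

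A class I molecule is a membrane-bound heavy chain paired with β2-microglobulin and holding a short peptide. Proteasomes cut cytosolic proteins into peptides, the TAP transporter moves them into the endoplasmic reticulum (ER), ERAP1 trims them, and tapasin holds empty class I molecules next to TAP until a peptide binds. CD8 T cells read the classical molecules, and natural killer cells read their loss. Heavy chain, B2m and transporter genes are known to respond to interferons and NF-κB, and NLRC5 is known to act at a shared promoter module with an X box and a CCAAT (Y) box that RFX, CREB/ATF and NF-Y proteins occupy.

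The 300-base RefSeq windows around the annotated starts (build GRCm38.p6, 250 bases before to 50 after) were found for 7 of the 9 genes; Tap2 and Nlrc5 are named only. Those of B2m (chr2:122147437-122147736, plus strand), H2-K1 (chr17:34000298-34000597, minus strand), H2-D1 (chr17:35262844-35263143, plus strand), H2-T23 (chr17:36032652-36032951, minus strand) and Tap1 (chr17:34187306-34187605, plus strand) are printed because these 5 genes were all highest in the same tumour and yet differ in which motifs they hold. Tapbp was also highest in that tumour, but its window, with CCAAT matches only, is not printed. A second H2-K1 window with the same motifs is not printed either. Each printed window is written 5′ to 3′ on the strand of its gene. Capitals mark matches, on either strand, to a κB site (GGGATTCCC), an interferon-response core (TTTCANTT), the TGACG core of an X2 box and CCAAT, which reads ATTGG on the other strand.
B2m: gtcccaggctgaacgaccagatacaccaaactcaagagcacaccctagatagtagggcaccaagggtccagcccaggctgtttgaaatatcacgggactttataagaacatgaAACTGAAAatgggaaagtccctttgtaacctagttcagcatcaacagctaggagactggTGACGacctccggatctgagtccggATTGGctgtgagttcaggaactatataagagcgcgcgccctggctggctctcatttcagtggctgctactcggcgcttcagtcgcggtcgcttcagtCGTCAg
H2-K1: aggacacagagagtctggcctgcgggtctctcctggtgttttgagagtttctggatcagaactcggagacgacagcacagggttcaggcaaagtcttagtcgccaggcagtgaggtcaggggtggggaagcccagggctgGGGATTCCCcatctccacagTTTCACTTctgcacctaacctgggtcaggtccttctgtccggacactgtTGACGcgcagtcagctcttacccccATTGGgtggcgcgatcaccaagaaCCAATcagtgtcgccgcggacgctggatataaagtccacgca
H2-D1: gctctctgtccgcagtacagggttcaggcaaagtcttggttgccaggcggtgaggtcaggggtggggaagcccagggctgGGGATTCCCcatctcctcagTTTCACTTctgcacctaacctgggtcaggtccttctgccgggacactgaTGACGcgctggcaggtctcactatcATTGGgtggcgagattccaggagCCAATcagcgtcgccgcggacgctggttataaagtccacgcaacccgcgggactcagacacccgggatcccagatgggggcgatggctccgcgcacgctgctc
H2-T23: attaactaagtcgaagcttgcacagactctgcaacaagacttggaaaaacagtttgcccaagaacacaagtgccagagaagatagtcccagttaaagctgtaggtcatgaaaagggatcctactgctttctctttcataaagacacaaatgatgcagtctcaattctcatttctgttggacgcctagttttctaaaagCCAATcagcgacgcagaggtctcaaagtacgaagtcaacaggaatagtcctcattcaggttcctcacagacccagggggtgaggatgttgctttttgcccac
Tap1: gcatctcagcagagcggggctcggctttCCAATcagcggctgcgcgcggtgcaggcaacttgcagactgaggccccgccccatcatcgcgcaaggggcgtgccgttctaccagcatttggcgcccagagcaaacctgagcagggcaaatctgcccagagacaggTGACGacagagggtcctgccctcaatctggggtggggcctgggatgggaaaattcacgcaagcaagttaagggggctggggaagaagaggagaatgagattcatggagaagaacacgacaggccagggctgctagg
A κB match stood in the H2-K1 and H2-D1 windows, 2 of 7, and in 0.353% of all 32851 windows searched. The interferon-response core was matched in B2m, H2-K1, H2-D1 and Erap1, against 6.58% of all windows. TGACG was present in B2m, H2-K1, H2-D1 and Tap1 (20.8% of all windows), and CCAAT in all but Erap1 of the 7 (37.4% of all windows). In B2m, H2-K1 and H2-D1 the first base of TGACG lay exactly 25 bases before the first base of ATTGG. That spacing was found in 31 windows, 0.0944% of all, with the windows of these genes counted among them. An ATTGG 15 to 35 bases after TGACG was found in 0.743%. H2-T23 held a CCAAT 52 bases before its start and none of the other 3 motifs. The windows of Tap1 and of the immunoproteasome gene Psmb9, which are transcribed away from each other, overlapped by 275 of 300 bases. These motifs and the spacing of 25 bases were chosen after the sequences had been seen. The matches overlap no other match in the windows printed, and a match describes letters, not binding. The windows are those of the reference build, and the promoter letters of the FVB/N tumours were not read.

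**Figure D1:**
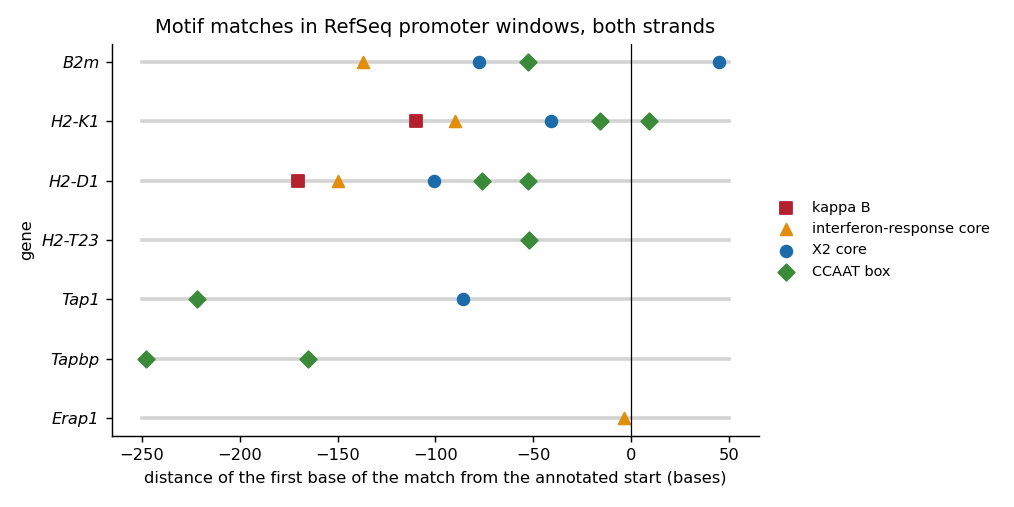
Matches to 4 motifs in the promoter windows of the 7 genes that have one. Each row is a gene, the horizontal axis is the distance in bases of the first base of a match from the annotated start, grey lines are the windows, and symbols stand for the motifs. The X2 core and the CCAAT box of B2m, H2-K1 and H2-D1 stand at the same spacing of 25 bases, while Tapbp shows CCAAT matches and Erap1 an interferon-response core.

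All 9 genes were above 1 FPKM (fragments per kilobase of transcript per 1e6 fragments, a level corrected for transcript length and depth), with mean log2 levels against 1 FPKM from 1.14 for Nlrc5 to 9.47 for B2m. A level was called when its adjusted p against 1 FPKM, a convention, was under 0.05 (limma with Benjamini-Hochberg adjustment over all 18028 symbols tested), and 54.2% of those symbols were above 1 FPKM by this rule. The highest gene was the light chain and the lowest the transactivator.

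B2m, the light chain shared by all class I heavy chains, was at 657, 783 and 922 FPKM in tumours 1, 2 and 3. It stood above 99.8% of symbols in each tumour. Its highest and lowest tumour differed by a factor of 1.40, the smallest ratio among the 9 genes as deposited. Its locus lies alone, away from the others, at mm9 chr2:121973423-121978818.

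The classical heavy chains H2-K1 and H2-D1 present peptides to CD8 T cells. H2-K1 was at 95.1, 120.2 and 234 FPKM in tumours 1, 2 and 3 (mm9 chr17:34132957-34137278). H2-D1 was at 152, 219 and 442 FPKM (mm9 chr17:35400039-35404442). Both were highest in tumour 3 and lowest in tumour 1, and H2-D1 was the higher of the pair in every tumour. H2-K1 minus H2-D1 was -0.82 ± 0.13 on the log2 scale (SD, n = 3; exact two-sided sign-flip permutation p = 0.25, the smallest that 3 tumours allow), a fold of 0.567. This ratio and the others below that hold H2-K1 or H2-D1 carry a limit. FVB mice have the H-2q haplotype, whereas the mm9 genome is that of an H-2b strain. How reads of these polymorphic genes aligned was not tested. In the GENCODE transcripts, 8.79% of the 50-base windows of H2-K1 and 14.3% of those of H2-D1 occur in other genes as well, the largest share of H2-K1 with H2-D1 and the largest of H2-D1 with H2-Q1.

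H2-T23 encodes the heavy chain of Qa-1, a non-classical molecule that presents leader peptides of other class I chains to the CD94/NKG2A receptor of natural killer cells. It was at 13.0, 20.5 and 37.2 FPKM in tumours 1, 2 and 3 (mm9 chr17:36166922-36169646). As deposited, its tumours followed the order of the classical chains at a far lower level. The sum of H2-K1 and H2-D1 exceeded it by 4.15 ± 0.10 log2 units (SD, n = 3; exact two-sided sign-flip permutation p = 0.25), and the fold of 18.8, 16.4 and 18.1 in tumours 1, 2 and 3 was the steadiest of the 6 ratios computed. Of its 50-base windows 28.8% are shared with other genes, the largest such share of the 9.

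The light chain and the classical heavy chains did not keep a fixed ratio. B2m exceeded the sum of H2-K1 and H2-D1 by a factor of 2.66 in tumour 1, 2.31 in tumour 2 and 1.36 in tumour 3. On the log2 scale the difference was 1.02 ± 0.51 (SD, n = 3; exact two-sided sign-flip permutation p = 0.25) and was positive in 3 of 3 tumours. After removal of GC and length trends (explained with the tumour differences) it was 0.36, 1.42 and 1.28 in tumours 1, 2 and 3, so the excess of light chain stayed positive, while tumour 1 had the smallest difference in place of the largest.

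TAP1 and TAP2 form the transporter as a pair. Tap1 was at 7.05, 7.53 and 20.4 FPKM in tumours 1, 2 and 3 (mm9 chr17:34324501-34334170). Tap2 was at 9.36, 11.6 and 22.1 FPKM (mm9 chr17:34341424-34353266). Tap2 was the higher in each tumour, but in tumour 3 their deposited intervals, 19.4 to 21.4 FPKM for Tap1 and 21.0 to 23.3 FPKM for Tap2, overlapped. Tap1 minus Tap2 was -0.38 ± 0.25 log2 units (SD, n = 3; exact two-sided sign-flip permutation p = 0.25). Tap1 was 1.07 times as high in tumour 2 as in tumour 1, and 2.71 times as high in tumour 3 as in tumour 2.

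Tapasin, encoded by Tapbp, was at 19.6, 20.2 and 42.4 FPKM in tumours 1, 2 and 3 (mm9 chr17:34056423-34066235). Like Tap1 it was near equal in tumours 1 and 2 and set apart in tumour 3 as deposited. With GC and length trends removed tumour 2 was the lowest for both, with Tapbp at 27.0, 18.4 and 33.7 FPKM and Tap1 at 9.69, 6.87 and 16.2 FPKM in tumours 1, 2 and 3. Tapbp exceeded Tap1 by 1.31 ± 0.22 log2 units, a fold of 2.48 (SD, n = 3; exact two-sided sign-flip permutation p = 0.25).

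Erap1, the ER aminopeptidase that trims peptides to class I length, went the other way. It was at 12.4, 7.99 and 5.94 FPKM in tumours 1, 2 and 3 (mm9 chr13:74777320-74829323), highest in tumour 1 and lowest in tumour 3. Its profile was the reverse of that of the heavy chains and the transporter as deposited. With GC and length trends removed its values were 7.67, 8.64 and 8.85 FPKM, a ratio of 1.15, which ends the call and turns the direction.

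Nlrc5, the transactivator of class I genes, was at 2.17, 1.53 and 3.75 FPKM in tumours 1, 2 and 3 (mm9 chr8:96996663-97051172). It was highest in tumour 3, as were the heavy chains, but lowest in tumour 2. Its adjusted p against 1 FPKM was 0.00657 (limma), the largest of the 9 genes.

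By mean FPKM the order was B2m, H2-D1, H2-K1, Tapbp, H2-T23, Tap2, Tap1, Erap1 and Nlrc5, at 787, 271, 149.8, 27.4, 23.6, 14.4, 11.7, 8.77 and 2.49 FPKM. Only 3 of the 8 neighbouring pairs had ranges over the tumours that did not overlap: B2m above H2-D1, H2-K1 above Tapbp, and Erap1 above Nlrc5. H2-D1 over H2-K1, H2-T23 over Tap2 and Tap2 over Tap1 held within each of the 3 tumours although their ranges overlapped. Tapbp was above H2-T23 in 2 of 3 tumours, with a mean difference of 0.25 ± 0.31 log2 units. Tap1 was above Erap1 in tumour 3 alone, with 0.29 ± 1.32 log2 units on average (SD, n = 3 for both). These last 2 pairs do not differ beyond their spread.

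**Figure D2:**
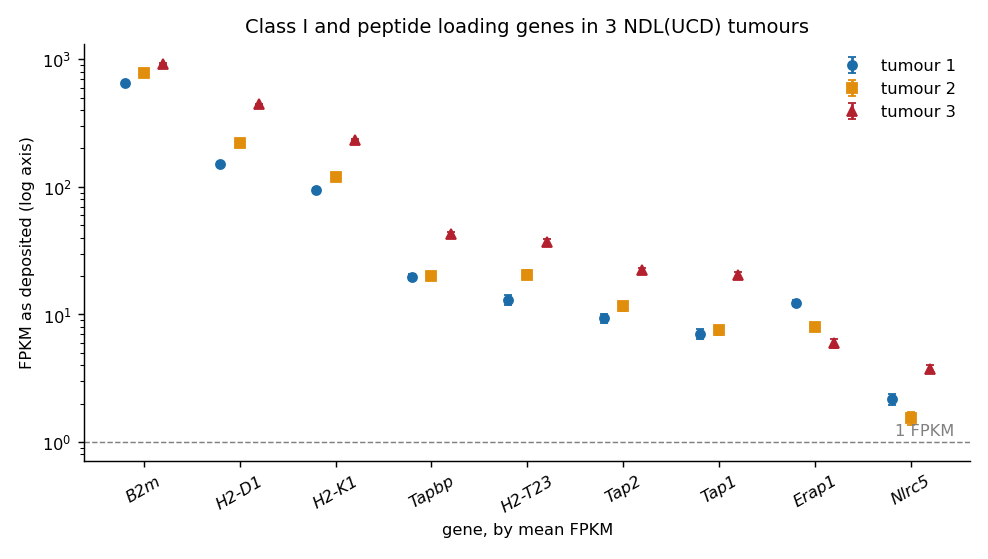
Deposited FPKM of the 9 genes on a log axis, ordered by mean, with 1 point per tumour and error bars for the deposited interval, which covers counting error only. B2m lies between 657 and 922 FPKM above all others, 8 genes have their highest point in tumour 3, and Erap1 has its highest, 12.4 FPKM, in tumour 1.

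Between tumours, 8 of the 9 genes differed by at least a factor of 2 with an adjusted p under 0.05 (Cochran's Q on the deposited standard errors, adjusted over 11193 symbols with a mean of at least 1 FPKM). The same rule called 32.2% of all those symbols, so such differences were common across the libraries. Both called and highest in tumour 3 were 7 of the 9, namely H2-K1, H2-D1, H2-T23, Tap1, Tap2, Tapbp and Nlrc5, as were 13.1% of all symbols. Erap1 was called and highest in tumour 1, as were 15.5% of all symbols. B2m was not called because its ratio of 1.40 is under 2. The ratios of highest to lowest tumour were 2.91 for H2-D1, 2.89 for Tap1, 2.85 for H2-T23, 2.46 for H2-K1, 2.45 for Nlrc5, 2.37 for Tap2, 2.17 for Tapbp and 2.08 for Erap1. The implied fragments behind each value numbered 291 or more, and Q with 2 degrees of freedom was 6492 for H2-D1 and 191 for Nlrc5. Each tumour is 1 library, so the test compares libraries against counting error and not conditions.

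Tumour 3 carried these calls. Without tumour 3, 0 of the 9 genes were called, while 14.1% of all symbols were. In tumours 1 and 2 each of the 9 had a ratio under 2, the largest being 1.58 for H2-T23 and 1.55 for Erap1. Without tumour 1, 4 genes were called (H2-D1, Tap1, Tapbp and Nlrc5; 5.74% of all symbols), and without tumour 2, 7 were (29.4% of all symbols).

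The libraries differed in how FPKM followed the GC content and length of transcripts, and these genes lie at both ends of that trend. H2-K1, H2-D1, H2-T23, Tap1, Tap2, Tapbp and Nlrc5 have longest coding transcripts of 52.6% to 57.3% GC, against 41.2% for B2m and 41.5% for Erap1. For H2-K1 the trend alone was -0.51 log2 units in tumour 1 and 0.38 in tumour 3, whereas for Erap1 it was 0.69 and -0.58. With the trends of each tumour removed, 3 of the 9 genes were called (15.5% of all symbols): B2m at a ratio of 2.84, Tap1 at 2.36 and Nlrc5 at 2.16. All 3 were highest in tumour 3, and 6.31% of all symbols were both called and highest there. The other 6 then had ratios of 1.15 for Erap1 to 1.83 for Tapbp. B2m was then at 448, 823 and 1273 FPKM in tumours 1, 2 and 3. H2-K1 was then at 136, 109 and 179.7 FPKM and H2-D1 at 214, 199 and 344 FPKM, so that tumour 2 and not tumour 1 was the lowest. H2-T23 was then at 18.3, 18.7 and 29.1 FPKM, with tumour 1 still the lowest. The removal takes away any real difference that follows base composition as well, and which values are nearer to the tissue was not tested.

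Being highest in tumour 3 did not depend on the scaling for 8 of the 9 genes. All but Erap1 were highest there as deposited, after median-of-ratios scaling, with each tumour set to the same FPKM total and with short loci left out, and all 9 were once the trends were removed. Of all symbols tested between tumours, 5304 of 11193 were highest in tumour 3 as deposited, and 4190 of 11149 with the trends removed. The order of tumours 1 and 2 was less firm, with 7 of 9 genes lowest in tumour 1 as deposited, 4 after median-of-ratios scaling and 3 with the trends removed. As deposited, 6679 of the 11193 symbols tested were lowest in tumour 1. The median of the 9 genes was 1.23 log2 units higher in tumour 3 than in tumour 1 as deposited and 0.49 with the trends removed. The median over all symbols was 0.38 as deposited and 0.01 with the trends removed.

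**Figure D3:**
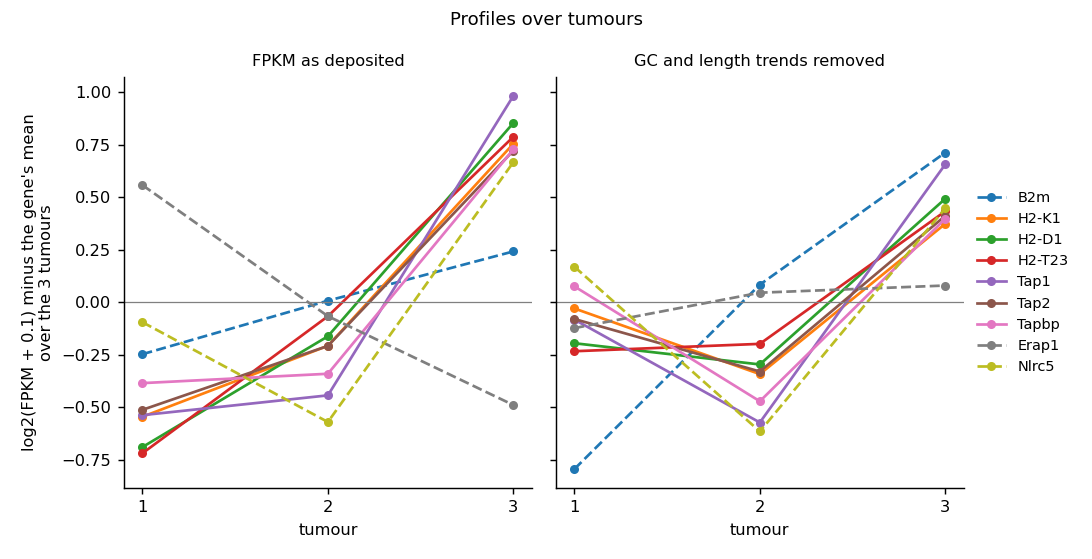
Profiles of the 9 genes over tumours 1 to 3, as log2(FPKM + 0.1) minus the mean of the gene, for deposited values on the left and with GC and length trends removed on the right. Lines join the tumours of a gene and give no order in time. On the left 8 genes peak in tumour 3 and Erap1 in tumour 1, and on the right Erap1 is nearly flat, at a ratio of 1.15, and B2m spans a ratio of 2.84.

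Among themselves, H2-K1 and Tap2 were the most alike, with a distance of 0.05 between their centred log2 profiles over the 3 tumours (Euclidean, deposited values). Only 1 of 6469 other symbols with a mean of at least 5 FPKM was nearer to H2-K1 than Tap2 was. That symbol was Psmb8, an immunoproteasome subunit, at 35.6, 45.7 and 86.6 FPKM in tumours 1, 2 and 3, followed by the class I gene H2-Gs10. Psmb8 was also nearest to Tap2, and then came Mrps34, of the mitochondrial ribosome. H2-D1 was nearest to H2-Q1, another class I heavy chain gene, and to Zmynd19. H2-T23 was nearest to Psmb10, another immunoproteasome subunit, and also to Zmynd19. Tap1 had only 3 symbols within a distance of 0.2, the first being Nfkbia, the inhibitor of NF-κB, at 9.87, 11.4 and 30.3 FPKM, and Lamb3, a laminin chain, the next. Tapbp lay nearest to the annotated microRNA gene Mir1907 and to Nr4a1, a nuclear receptor. Nlrc5 lay nearest to Timp3, a metalloproteinase inhibitor, and Apol9b, with 7 symbols within 0.2. Erap1 was nearest to Kidins220 and 1700020I14Rik, and 226 symbols lay within 0.2 of it. B2m was nearest to Depdc5 and Mmadhc, but 972 symbols lay within 0.2 of it. A profile over 3 libraries holds few degrees of freedom, and the part of depth and base composition in these likenesses was not tested.

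The counts of calls in the gene lists that follow stand against 32.2% of all symbols called between tumours as deposited, 13.1% called as highest in tumour 3, and 15.5% called with the trends removed. Of 25 other class I heavy chain symbols found, 13 were above 1 FPKM, 10 below, and 11 of the 13 tested between tumours were called, all highest in tumour 3. H2-Gs10, H2-T10 and H2-Bl were the highest by mean among them. H2-Gs10 was at 14.5, 17.8 and 36.3 FPKM in tumours 1, 2 and 3. H2-T10 was at 8.61, 12.7 and 21.2 FPKM. H2-Bl was at 4.63, 7.95 and 17.5 FPKM. All 3 were highest in tumour 3 and lowest in tumour 1 as deposited. The others called were H2-Q1, H2-Q6, H2-Q7, H2-Q8, H2-Q10, H2-T9, H2-T24 and H2-M3, with ratios from 2.17 for H2-T24 to 4.66 for H2-T9, and H2-M1 was listed at 0 in every tumour. The median of the 13 was 1.48 log2 units higher in tumour 3 than in tumour 1, and 0.88 with the trends removed, when 4 of 13 were called. H2-Q8 and H2-T9 were among those 4, but they had no GC value, so their deposited values stood unchanged. Genes of this list share sequence with H2-K1, H2-D1 and H2-T23, and reads that fit several of them could not be told apart here.

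Class I-like molecules, which share the fold but serve other ligands, did not move as one. Fcgrt, the neonatal Fc receptor, was at 5.55, 12.3 and 21.3 FPKM in tumours 1, 2 and 3 and was called. Mr1, which presents vitamin B metabolites, was at 13.6, 6.05 and 2.27 FPKM, the opposite order, also called. Both calls held with the trends removed, with Mr1 at 11.4, 5.90 and 2.79 FPKM. Hfe and Procr were called as highest in tumour 3 as well, Cd1d1 and Cd1d2 were not called, and Azgp1 was the lowest at a mean of 0.0584 FPKM.

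The immunoproteasome makes peptides suited to class I and is known to be induced by interferon. Its 5 genes, counting the PA28 activator, were all above 1 FPKM, and 4 of 5 were called, all highest in tumour 3. Psmb9 was at 7.83, 11.8 and 27.0 FPKM in tumours 1, 2 and 3. Psmb10 was at 5.22, 8.21 and 14.3 FPKM. The activator gene Psme2 was at 50.8, 72.6 and 140.3 FPKM, and Psme1 at 31.7, 44.9 and 54.6 FPKM was the gene not called. Set beside its constitutive counterpart, Psmb9 averaged 15.5 FPKM against 87.1 FPKM for Psmb6, Psmb10 averaged 9.23 FPKM against 118 FPKM for Psmb7, and Psmb8 was the higher of its pair at 56.0 FPKM against 21.8 FPKM for Psmb5. Psmb5 and Psmb6 were called as highest in tumour 3. Summed Psmb8, Psmb9 and Psmb10 minus summed Psmb5, Psmb6 and Psmb7 was -1.57 ± 0.34 log2 units (SD, n = 3; exact two-sided sign-flip permutation p = 0.25), a ratio of 0.310, 0.281 and 0.441 in tumours 1, 2 and 3. With the trends removed 0 of these 8 genes were called.

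In the ER, the chaperones that assist class I folding differed in direction. Calreticulin (Calr) was at 295, 520.4 and 595 FPKM in tumours 1, 2 and 3 and was called. Hspa5, the general ER chaperone BiP, was at 581, 479 and 263 FPKM and was called with the opposite order. Pdia3 (ERp57, a part of the loading complex) averaged 65.9 ± 15.9 FPKM (SD, n = 3) and was not called, nor were Tapbpl, Ganab and Uggt1. Canx had a status other than OK, so it was not tested. With the trends removed 0 of the 6 were called.

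Cytosolic peptidases and cross-presentation genes gave 4 calls among 10, near the 32.2% of all symbols: Thop1 was highest in tumour 3, whereas Tpp2, Nrd1 and Ide were highest in tumour 1. Sec61a1, Lap3 and Blmh were the highest by mean, at 43.3, 29.9 and 28.2 FPKM, and Nrd1 was the lowest at 4.29 FPKM. With the trends removed 3 of 10 were called, Lnpep, Nrd1 and Sec22b (15.5% of all symbols).

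All 15 genes of class I transcription were above 1 FPKM, and 4 were called. Ciita, the class II transactivator and a relative of Nlrc5, was at 1.17, 2.40 and 3.96 FPKM in tumours 1, 2 and 3 and highest in tumour 3. Creb1, Atf1 and Ezh2 were highest in tumour 1. Irf1 and Nfkb1 were not called, with Irf1 at 17.1, 20.2 and 32.1 FPKM in tumours 1, 2 and 3. The RFX subunits Rfx5, Rfxap and Rfxank and the NF-Y subunits Nfya, Nfyb and Nfyc were not called, with ratios of 1.08 for Rfx5 to 1.82 for Rfxank. The median of the 15 was 0.09 log2 units higher in tumour 3 than in tumour 1, below the 0.38 of all symbols. With the trends removed Ciita alone was called.

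Interferon receptor chains and their transducers gave 1 call of 9 tested, Jak2, which was highest in tumour 1 at 9.49 FPKM against 3.12 and 2.06 FPKM in tumours 2 and 3. Ifnar2, Ifngr2 and Irf9 had the highest means, 37.5, 19.7 and 17.3 FPKM. The interferon genes Ifng and Ifnb1 averaged 0.0686 and 0.124 FPKM, and both were listed at 0 in tumour 3. Stat2 was called with Jak2 when the trends were removed.

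Receptors that read class I molecules were scarce: of 14 found, 1 was above 1 FPKM (Klra2, mean 2.82 FPKM) and 8 below. Lilrb3, an inhibitory myeloid receptor, was at 0.842, 1.74 and 3.48 FPKM in tumours 1, 2 and 3 and was called. Klrd1 (CD94), which reads Qa-1, averaged 0.686 FPKM, and Klra3 and Klra9 were listed at 0 in every tumour. Of the NKG2D receptor and its ligands 0 of 6 tested were called above 1 FPKM, 5 were below and 1 was not separated from it. H60b was the highest at a mean of 0.810 FPKM, followed by Klrk1 at 0.213 FPKM and Raet1e at 0.0940 FPKM, with Ulbp1 listed at 0.

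**Figure D4:**
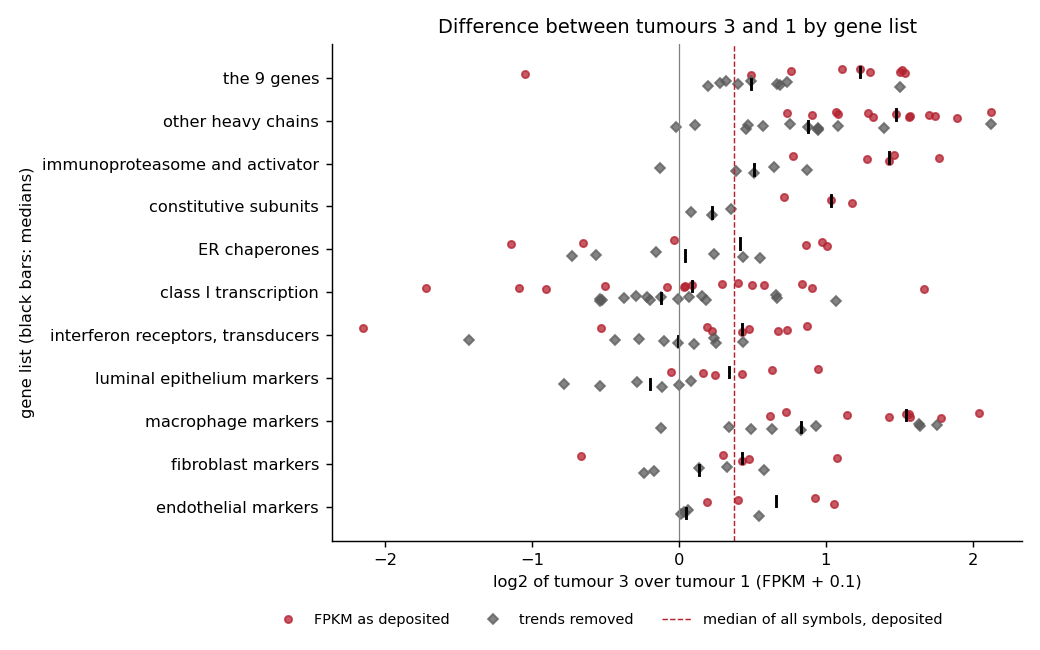
Log2 of tumour 3 over tumour 1 for each gene with a mean of at least 1 FPKM, by gene list. Red circles are deposited values, grey diamonds values with GC and length trends removed, black bars list medians, and the dashed line the median of all symbols, 0.38. The medians of the 9 genes, 1.23, of the other heavy chains, 1.48, and of the macrophage markers, 1.55, lie right of that line. So do those of the immunoproteasome list, 1.43, the constitutive subunits, 1.04, and the endothelial markers, 0.66. The interferon list, 0.43, fibroblast markers, 0.43, and ER chaperones, 0.42, lie just right of it. Class I transcription, 0.09, and luminal markers, 0.34, lie left of it. Each median is lower with the trends removed.

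Lists of host cell markers differed in their order over the tumours. In these bulk samples fewer cells of a type and less RNA per cell cannot be told apart. Of 9 macrophage markers 8 were called (Cd68, Csf1r, Emr1, C1qa, C1qb, C1qc, Lyz2 and Mrc1), all highest in tumour 3, and their summed FPKM was 293, 538 and 996 in tumours 1, 2 and 3. With the trends removed the sums were 369, 496 and 878 FPKM and 3 of 9 were called. Lyz2, C1qa and Cd14 had the highest means and Mrc1 the lowest, with Lyz2 at 146, 230.3 and 602 FPKM. Summed dendritic cell markers were 5.59, 9.47 and 13.5 FPKM, most of it from Itgax alone at 3.72, 6.76 and 9.05 FPKM. Itgax and Zbtb46 were called, and Flt3, Xcr1, Clec9a and Siglech were below 1 FPKM. Lymphocyte markers were low. Summed T cell markers were 1.77, 4.99 and 8.82 FPKM, of which Cd3g was above 1 FPKM and was called, Cd4 and Cd3d averaged 0.755 and 0.591 FPKM, and Trat1 was listed at 0 in tumours 1 and 3. Summed NK and cytotoxic markers (Ncr1, Klrb1c, Klrd1, Prf1, Gzma and Gzmb) were 4.94, 1.64 and 3.15 FPKM, and 0 of the 6 were above 1 FPKM. The B cell markers Ms4a1, Cd79a and Cd79b were below 1 FPKM, Ms4a1 being listed at 0 in tumours 1 and 2. The luminal epithelium markers Krt8, Krt18, Epcam, Cdh1, Cldn3 and Elf5, checked against the labelled mammary tumour, were all above 1 FPKM and 0 of the 6 were called. As deposited their sums were 789, 1163 and 1096 FPKM, with Epcam at 205, 202 and 198 FPKM. Their order changed with the trends removed, to sums of 1088, 1061 and 866 FPKM and Epcam at 276, 184 and 161 FPKM, still with 0 of the 6 called. Fibroblast markers (Col1a1, Col1a2, Col3a1, Pdgfra and Dcn) summed to 164, 287 and 255 FPKM, with Col3a1 called. Endothelial markers (Pecam1, Cdh5, Kdr, Tek and Plvap) summed to 15.3, 23.1 and 23.5 FPKM, with Cdh5 called. With the trends removed 0 of the dendritic cell, fibroblast and endothelial markers were called. The part of these cells in the levels of the class I genes was not tested.

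Of the 9 genes 6 lie on chromosome 17, within 2.11 Mb (mm9 chr17:34056423-36169646). Tap1 and Tap2 are 7.25 kb apart, Tapbp and H2-K1 66.7 kb, H2-K1 and Tap1 187 kb, H2-D1 and H2-T23 762 kb, and Tap2 and H2-D1 1047 kb. Of the 131 other symbols in the interval, 86 were tested between tumours and 36 were called, every one highest in tumour 3. Leaving out symbols that begin with H2, Psmb8 and Psmb9, 20 of 66 were called, near the 32.2% of all symbols. Again all 20 were highest in tumour 3, and 13.1% of all symbols were both called and highest there. Among all 3603 symbols called, 1462 were highest in tumour 3. The median of those 66 was 0.81 log2 units higher in tumour 3 than in tumour 1, against 0.38 for all symbols, and 0.04 with the trends removed, when 8 of 66 were called (15.5% of all symbols), 5 of them highest in tumour 3 and 3 in tumour 1.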

How the data were processed

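Total RNA was profiled in 3 NDL(UCD) tumours, numbered 1 to 3 in accession order because the titles give no plain replicate number; other numbers in the titles are not explained in the sources used here. The series design states separate mice. Per the file headers, the authors deposited FPKM per gene, its interval and a status. TopHat, Cufflinks and mm9 are named in the submitters' processing notes, with no versions. For annotation release and strandedness, the sources used here give nothing. FPKM is relative to the library total, so a few abundant transcripts lower all others, and random priming and amplification can favour some base compositions. FPKM totals ran over 318509 to 375968 and the implied fragments (FPKM over standard error, squared, with 1 standard error read as the interval half-width divided by 2) over 11.7 to 13.4 M. Intervals cover counting error only.

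Rows of 221 repeated symbols were added up, and 182 symbols without status OK in every tumour were not tested. Levels were tested with limma 3.58.1 (R 4.3.3) on log2((FPKM + 0.1)/(1 + 0.1)) against 0, with trend and robust moderation, for symbols above 0 in at least 1 tumour. Tumours were compared by Cochran's Q with a ratio of at least 2, and ratios between genes by exact sign-flip permutation over tumours. A further fit removed GC and length trends by lowess (span 0.3). GC and length are those of the longest protein-coding GENCODE vM21 transcript, matched by name for 98.3% of symbols. Symbols without a match kept their deposited values. A first choice, the median length over transcripts, was dropped because truncated transcripts made it too short. GENCODE and RefSeq coordinates (GRCm38) were not mixed with those of the files (mm9, written from 1). Scripts were tested on simulated data.

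The 9 genes and the 18 lists were chosen with earlier results of these data known. Named are the 9 genes, the 3 highest and the lowest symbol of each list by mean, all of lists of up to 6, any list gene past the Q rule, and for each of the 9 the 2 nearest profiles; others were named after their values were seen, and some genes the rule would name are not reported here. Alternatives were pseudocount, scaling, filters, repeated symbols, further error and each tumour left out.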

Additional observations from a re-analysis of the deposited data

How the results depend on the processing

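The count of 9 genes above 1 FPKM was the same under all 11 alternatives, and the 6 ratios between genes or gene sums kept their sign under pseudocount 1, removal of GC and length trends, the first row of repeated symbols and each tumour left out. The count of genes that differed between tumours, 8, was 3 with GC and length trends removed, and 0 to 7 with 1 tumour left out (0 without tumour 3, 4 without tumour 1). It was 6 after median-of-ratios scaling and 8 under the other alternatives, which were an FPKM total of 1e6, no filter on the mean, 10% further error, the first row of repeated symbols and loci under 300 bp left out, the last chosen after seeing the data. B2m minus classical heavy chains ran over 0.83 to 1.31 log2 units with 1 tumour left out, H2-K1 minus H2-D1 over -0.89 to -0.77, classical heavy chains minus H2-T23 over 4.11 to 4.21, Tap1 minus Tap2 over -0.51 to -0.26, Tapbp minus Tap1 over 1.23 to 1.44, and immunoproteasome minus constitutive subunits over -1.76 to -1.44. No paired analysis was possible because there is 1 group. With 3 libraries no exact sign-flip permutation test can go below p = 0.25, and Q sets libraries against counting error alone.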
